A study of Mus musculus with 8 samples.

Results

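The spliceosome genes are the protein-coding genes that the deposited table assigns to the KEGG map of that name. The map entry was found in 129 rows, and 4 heat shock genes (Hspa1a, Hspa1b, Hspa1l and Hspa8) were left out, since their chaperone products serve many other processes. This gave 125 genes among the 18473 of the table. Of these, 122 passed the filter on low values, which asked for 1 FPKM or more in 4 or more of the 8 libraries. FPKM is the number of fragments of a gene scaled to its length and to the depth of the library. The 3 genes that did not pass it are Eif4a3l1 and Hnrnpa1l2-ps2, listed at or near 0, and Thoc2l, which averaged 0.783 FPKM in EXO and 0.632 in LPS.

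RNA from mouse cells was sequenced in 8 libraries, 4 titled EXO and 4 titled LPS, each numbered as replicates 1 to 4. According to the design text, macrophages received ADSC-Exos before sequencing, while every library is labelled as MLE-12, a lung epithelial cell line of the mouse. The labels spell out neither abbreviation and give no dose, time, sex or genotype. They do not state whether the EXO cells also received LPS. The libraries include no untreated group, so rose and fell below mean higher and lower in EXO than in LPS. A gain in EXO and a loss in LPS cannot be told apart. No label ties the replicates to separate cultures; the p-values therefore rest on the spread among these libraries alone, and that spread may be technical.

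Of 14 macrophage markers, 13 passed the filter, and they summed to 5907 to 7488 FPKM in the EXO group and to 10683 to 22202 in the LPS group. Of 13 epithelial and alveolar markers the table held Ocln, Elf3 and Muc1, whose summed level was at most 0.204 FPKM in any library, and none of the 7 analysed fibroblast and endothelial markers was tested. Recovered depth was 37014760 to 40591444 fragments per library. LPS replicate 4 and EXO replicate 2 were the libraries in which spliceosome genes lay nearest the other group: replicate 4 was the highest LPS library for 97 of the 122 genes (79.5%, against 49.8% of all tested genes) and EXO replicate 2 the lowest EXO library for 75 (61.5%, against 31.6%). EXO replicate 3 was the highest EXO library for 68 genes (55.7%, against 32.5%).

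The spliceosome removes introns from pre-mRNA. It is built anew on each intron from small nuclear ribonucleoproteins (snRNPs), in which a short nuclear RNA is wrapped by a ring of Sm or LSm proteins and joined by proteins of its own. The U1 and U2 particles mark the ends and the branch point of the intron, the tri-snRNP of U4, U6 and U5 then docks, helicases rearrange the complex, and the PRP19 complex holds it in its active form. SR and hnRNP proteins bind the transcript and steer which sites are used, and the exon junction complex marks the spliced product. These roles are known mainly from work on human and yeast proteins. Macrophages, like other cells, express this machinery throughout, and alternative splicing of immune transcripts is part of their response to bacterial products.

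The question put to the data was how the machinery's transcripts differed between EXO and LPS cells. They were higher in EXO as a group: 93 of the 122 tested genes rose (76.2%), where 33.7% of all tested genes did, and 0 fell, where 24.7% of all tested genes did. No member was lower at an unadjusted p under 0.05 either, and limma with voom on recovered fragments called 88 higher and 0 lower. The balance over all tested genes moved with the scaling: 29.5% were higher and 29.8% lower after median-of-ratios rescaling, and 30.4% and 29.3% with voom. The remaining 29 genes did not pass the test. The median log2 fold change of the 122 genes was 0.60, with quartiles of 0.37 and 0.89, and that of all tested genes was 0.085. Values ran from -0.21 for Ddx5, an RNA helicase with roles in transcription as well as splicing, to 1.61 for Lsm7, and 114 were above 0.

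All 4 EXO libraries lay above all 4 LPS libraries for 77 of the 122 genes (63.1%, against 29.1% of all tested genes), and the reverse held for 0 (against 22.1%). A log2 fold change of at least 1 with an adjusted p under 0.05 was seen for 17 genes (13.9%, against 5.19%). Because most of these genes are well expressed, the count was also read among genes with a mean of at least 20 FPKM, where 77 of 96 spliceosome genes were higher (80.2%) and 40.9% of all such genes were, with 25.4% lower. The genes together took 1.98% ± 0.19 of all FPKM in EXO libraries (1.73% to 2.19%) and 1.17% ± 0.18 in LPS libraries (1.04% to 1.42%; SD, n = 4 each). The highest LPS library in that share was replicate 4 and the lowest EXO library was replicate 2, and the groups did not overlap.

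These are shares of the RNA of whole cultures, in which more cells of a kind and more RNA per cell cannot be told apart. Along with them moved 11 proliferation markers, all higher in EXO (summed level 1136 to 1194 FPKM against 547 to 701). The macrophage markers moved too, and 12 of 13 were lower. Of all tested genes 33.7% were higher and 24.7% lower. The part of either marker list in the spliceosome differences was not tested.

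**Figure D1:**
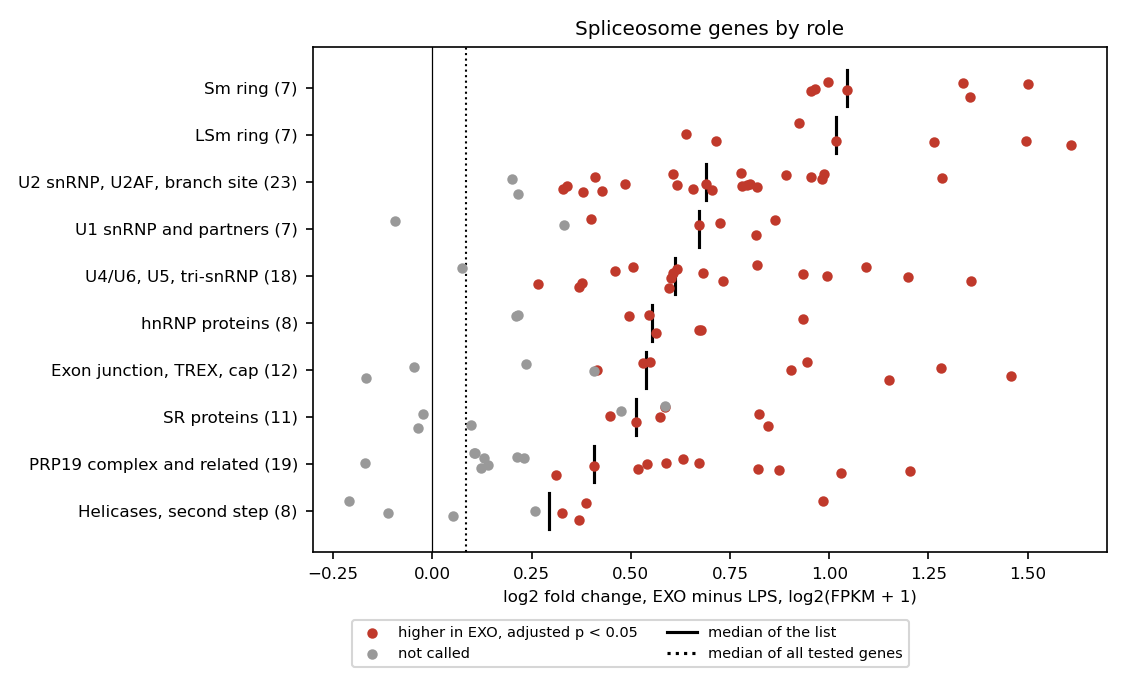
Log2 fold change (EXO minus LPS, computed from log2(FPKM + 1)) of the tested spliceosome genes with a role, grouped by role. Each point is a gene, the bars are the medians of the role lists and the dotted line is the median of all 9812 tested genes; medians run from 1.04 in the Sm ring to 0.29 among the helicases and second step factors, all to the right of the dotted line.

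The promoters of the genes were looked at because so many members moved together. RefSeq promoter windows, from 250 bases before to 50 bases after a start, were matched by gene ID for 96 of the 125 genes, which gave 115 windows. Of 9 motifs, each searched on both strands, CCGGAAG, the core bound by ETS factors such as GABPA, was held by 44 windows (38.3%), against 20.2% of the windows of tested genes and 8.86% of all windows. Above their share in tested genes stood also GATGGCG, of the YY1 motif, in 16.5% of windows (7.12%), and TCTCGCG, the core of a C and G rich promoter motif, in 12.2% (5.75%). The others lay nearer: GGGCGG in 60.9% (63.6%), CCAAT in 44.3% (38.1%), GCCAT in 40.0% (39.4%), TATAAA in 10.4% (6.73%), CACGTG in 9.57% (10.7%) and GCGCATG in 6.09% (7.57%). Counted by gene, CCGGAAG was in 33 of 71 members that rose (46.5%) and in 8 of 23 that were not called (34.8%). The order was the other way for GATGGCG (15.5% and 26.1%) and GCCAT (36.6% and 60.9%), and no difference between risen and uncalled members was tested. Shares by gene cannot be set beside the shares by window, since a gene with several windows has more chances of a match. A share by gene over all tested genes is not given here. The motifs of 7 letters other than the first are cores to which longer motifs were shortened after a first search, and GCCAT, read on the other strand, overlaps the YY1 core. Below are 4 windows that hold the motif, chosen after their values were seen: those of Lsm5, Ppih and Alyref, the highest called members with exactly 1 such window, and that of Pcbp1, the most abundant such member that was not called. They are given 5′ to 3′ on the strand of the gene, in build GRCm38.p6 (the authors' build was GRCm39), with CCGGAAG or its reverse complement in capitals. They lie at chr6:56704650-56704949, chr4:119320474-119320773, chr11:120598316-120598615 and chr6:86526140-86526439, all on the minus strand.
Lsm5: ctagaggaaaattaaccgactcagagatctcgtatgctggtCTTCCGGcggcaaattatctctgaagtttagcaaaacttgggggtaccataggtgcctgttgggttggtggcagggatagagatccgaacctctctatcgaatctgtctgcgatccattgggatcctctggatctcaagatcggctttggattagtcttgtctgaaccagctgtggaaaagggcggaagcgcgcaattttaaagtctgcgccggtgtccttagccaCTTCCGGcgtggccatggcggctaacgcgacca
Ppih: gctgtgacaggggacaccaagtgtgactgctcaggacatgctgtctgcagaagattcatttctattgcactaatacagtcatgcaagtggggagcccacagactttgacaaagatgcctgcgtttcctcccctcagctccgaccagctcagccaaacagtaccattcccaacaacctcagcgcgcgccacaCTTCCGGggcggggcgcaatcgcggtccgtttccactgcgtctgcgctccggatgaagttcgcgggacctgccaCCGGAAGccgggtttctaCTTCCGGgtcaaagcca
Alyref: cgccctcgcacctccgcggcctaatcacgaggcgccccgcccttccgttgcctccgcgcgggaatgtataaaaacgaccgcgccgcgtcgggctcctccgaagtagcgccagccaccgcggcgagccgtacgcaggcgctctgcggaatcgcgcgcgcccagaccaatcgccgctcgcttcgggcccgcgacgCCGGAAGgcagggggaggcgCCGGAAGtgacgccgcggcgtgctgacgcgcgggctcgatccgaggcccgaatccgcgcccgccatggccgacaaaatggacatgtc
Pcbp1: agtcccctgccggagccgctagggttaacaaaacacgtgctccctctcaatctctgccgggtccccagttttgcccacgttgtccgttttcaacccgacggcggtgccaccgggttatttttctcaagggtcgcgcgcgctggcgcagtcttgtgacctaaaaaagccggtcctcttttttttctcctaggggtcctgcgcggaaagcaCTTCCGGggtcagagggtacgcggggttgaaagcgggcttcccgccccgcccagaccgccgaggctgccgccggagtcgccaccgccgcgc
The Ppih window holds 3 copies, the Lsm5 and Alyref windows 2 each and the Pcbp1 window 1. A match is a stretch of letters, and binding was not measured.

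The Sm proteins, which form the ring around the U1, U2, U4 and U5 RNAs, rose without exception. All 7 were called higher, where 33.7% of all tested genes were. The groups overlapped in none of them, where EXO lay above without overlap in 29.1% of all tested genes, and the median was 1.04. Snrpf, which encodes the F subunit, had 416, 286, 378 and 368 FPKM in EXO replicates 1 to 4 and 116, 105, 140.4 and 148 in LPS replicates 1 to 4. Every EXO library was well above every LPS library, and the log2 fold change was 1.501 ± 0.14 (SE, n = 4 and 4; adjusted p = 1.22e-06). The D subunits D1 and D2 followed, Snrpd2 with 361, 296, 296 and 304 FPKM in EXO replicates 1 to 4 and 120.0, 115, 129 and 124 in LPS replicates 1 to 4 and Snrpd1 with 349, 239, 328 and 286 FPKM in EXO replicates 1 to 4 and 122, 115, 113 and 118 in LPS replicates 1 to 4. In both, the LPS libraries were tightly grouped and the EXO libraries were spread above them. Their log2 fold changes were 1.36 ± 0.11 (SE, n = 4 and 4; adjusted p = 2.67e-07) and 1.34 ± 0.12 (SE, n = 4 and 4; adjusted p = 1.07e-06).

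Snrpg, Snrpe and Snrpd3 were 3 of the 5 most abundant members. Snrpg had 788, 586, 599.6 and 646 FPKM in EXO replicates 1 to 4 and 347, 304, 348 and 335 in LPS replicates 1 to 4, and its log2 fold change was 0.96 ± 0.12 (SE, n = 4 and 4; adjusted p = 1.21e-05). Snrpe (544 ± 54.2 FPKM (EXO) against 263 ± 15.3 (LPS), SD) and Snrpd3 (425 ± 46.6 FPKM (EXO) against 218 ± 11.7 (LPS)) were higher in EXO by 1.04 and 0.95 on the log2 scale (adjusted p of 3.02e-06 and 7.53e-06). Snrpb, the subunit B gene, differed by 0.996 ± 0.14 (SE, n = 4 and 4; adjusted p = 4.69e-05). The ring's genes varied less among LPS libraries, with a median coefficient of variation of 5.81%, than among EXO libraries (14.1%), where replicate 1 was the highest for 6 of 7. Processed copies of several of these genes lie elsewhere in the mouse genome, and the sources used here do not say how the authors' counting treated reads shared with them.

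**Figure D2:**
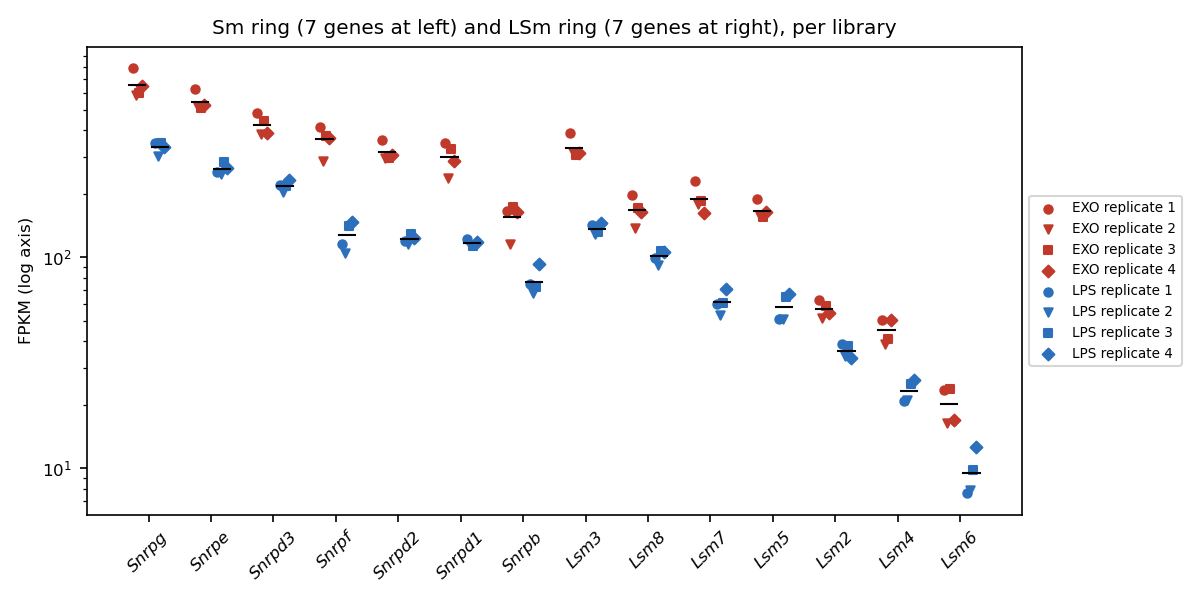
FPKM on a log axis of the Sm ring genes (left) and the LSm ring genes (right), 1 point per library, with the shape giving the replicate number and bars the group means. For each of the 14 genes all EXO libraries lie above all LPS libraries, from Snrpg at 655 and 333 FPKM on average to Lsm6 at 20.1 and 9.47.

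The LSm ring binds the tail of U6 RNA, and most of its subunits also act in cytoplasmic mRNA decay. It showed the same: 7 of 7 genes rose and did not overlap, with a median of 1.02. Of all tested genes 33.7% rose, and in 29.1% EXO lay above LPS without overlap. Lsm7 had the highest value of all members, at 230.1, 179, 185 and 163 FPKM in EXO replicates 1 to 4 and 60.3, 53.1, 60.6 and 70.7 in LPS replicates 1 to 4. The lowest EXO library held more than the highest LPS library by a wide margin, and the log2 fold change was 1.61 ± 0.13 (SE, n = 4 and 4; adjusted p = 2.91e-07). Lsm5 had 189, 157, 155 and 164 FPKM in EXO replicates 1 to 4 and 51.1, 50.99, 64.8 and 66.9 in LPS replicates 1 to 4 and a log2 fold change of 1.497 ± 0.12 (SE, n = 4 and 4; adjusted p = 4.02e-07). Lsm3, the most abundant of the ring, had 391, 317, 305 and 313 FPKM in EXO replicates 1 to 4 and 142, 129, 131 and 146 in LPS replicates 1 to 4, with 1.26 ± 0.11 (SE, n = 4 and 4; adjusted p = 7.28e-07). Within the ring the order of the estimates ended with Lsm2, at 0.64 ± 0.11 (SE, n = 4 and 4; adjusted p = 0.000202), and Lsm8, at 0.71 ± 0.12 (SE, n = 4 and 4; adjusted p = 0.000172). The 95% confidence intervals of Lsm2 (0.40 to 0.88) and Lsm7 (1.33 to 1.88) do not overlap; the difference between these subunits was not tested.

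Where 33.7% of all tested genes rose, 5 of 7 tested genes of the U1 particle and its partners did, with a median of 0.67. The particle's own proteins were all among them. Snrnp70, which contacts the U1 RNA, had 63.6, 53.5, 66.8 and 66.8 FPKM in EXO replicates 1 to 4 and 32.2, 28.8, 34.6 and 40.8 in LPS replicates 1 to 4, and its log2 fold change was 0.86 ± 0.13 (SE, n = 4 and 4; adjusted p = 5.39e-05). Snrpc, which helps U1 recognise the 5′ splice site, averaged 94.8 ± 11.9 FPKM (EXO) against 53.3 ± 6.396 (LPS) (log2 fold change 0.82 ± 0.13 (SE, n = 4 and 4; adjusted p = 7.9e-05)), and Snrpa averaged 69.3 ± 9.72 FPKM (EXO) against 43 ± 4.37 (LPS) (0.67 ± 0.12 (SE, n = 4 and 4; adjusted p = 0.000369)). Prpf40b was called at 0.40 (limma adjusted p = 0.0205) on a level of 1.84 to 4.29 FPKM, but lost the call without EXO replicate 2, its highest library (adjusted p = 0.0571), without LPS replicate 2 (0.0533), after median-of-ratios rescaling (0.0509) and with no filter on low values (0.0558). Rbm25, which was not called, was at -0.09 (adjusted p = 0.604).

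Among U2 snRNP, U2AF and branch site factors, 21 of 23 rose (against 33.7% of all tested genes), and the median was 0.69. Snrpa1, the U2 protein A′, led with 185, 167, 184 and 193 FPKM in EXO replicates 1 to 4 and 70.2, 64.8, 74.1 and 89.5 in LPS replicates 1 to 4. The groups were far apart and each was narrow, with a log2 fold change of 1.28 ± 0.12 (SE, n = 4 and 4; adjusted p = 9.94e-07). Ddx39b, the helicase that helps U2 onto the branch site and later exports mRNA, had 135, 138, 154 and 150.4 FPKM in EXO replicates 1 to 4 and 70.3, 68.8, 74.1 and 75.7 in LPS replicates 1 to 4. It rose by 0.99 ± 0.10 (SE, n = 4 and 4; adjusted p = 2.76e-06), with little spread in either group. Sf3b5, the small subunit of the branch site complex SF3b, rose by 0.98 ± 0.11 (SE, n = 4 and 4; adjusted p = 5.17e-06), from 165 to 211 FPKM (EXO) against 92.4 to 100.1 (LPS).

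The large subunit of that complex was not called, and differences between the subunits were not tested. Sf3b1, which clamps the branch point, had 45.4, 53.8, 59.2 and 48.97 FPKM in EXO replicates 1 to 4 and 42.7, 45.3, 45.2 and 43.9 in LPS replicates 1 to 4. Its EXO libraries lay just above its LPS libraries without overlap, but the difference of 0.22 ± 0.11 (SE, n = 4 and 4; adjusted p = 0.108) did not pass. The other SF3b genes Sf3b2 (0.82), Sf3b3 (0.49), Sf3b4 (0.43), Sf3b6 (0.79) and Phf5a (0.71) were all called higher. At the 3′ splice site, U2af1, which reads the terminal AG, averaged 145 ± 10.8 FPKM (EXO) against 84.8 ± 13.2 (LPS) and rose by 0.78 ± 0.12 (SE, n = 4 and 4; adjusted p = 9.72e-05), and U2af2, which binds the pyrimidine tract, averaged 40.4 ± 8.79 FPKM (EXO) against 21.2 ± 4.71 (LPS) and rose by 0.89 ± 0.17 (SE, n = 4 and 4; adjusted p = 0.000643). The less abundant paralog U2af1l4 averaged 20.3 ± 1.75 FPKM (EXO) against 17.5 ± 0.578 (LPS) and was not called (0.20 ± 0.11 (SE, n = 4 and 4; adjusted p = 0.117)).

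In the U4/U6 and U5 particles and the tri-snRNP they form, 17 of 18 genes rose (against 33.7% of all tested genes). The median was 0.61. Ppih, a cyclophilin that rides on the U4/U6 particle, had 44.4, 32.02, 35.6 and 31.6 FPKM in EXO replicates 1 to 4 and 12.6, 13.1, 12.7 and 14.9 in LPS replicates 1 to 4. It rose by 1.36 ± 0.13 (SE, n = 4 and 4; adjusted p = 1.05e-06), with all LPS libraries under 15 FPKM. Snu13, which binds the kinked stem of U4 RNA, averaged 299 ± 40.2 FPKM (EXO) against 139 ± 9.75 (LPS) and rose by 1.09 ± 0.12 (SE, n = 4 and 4; adjusted p = 4.03e-06). Usp39, which is needed for the tri-snRNP to join, rose by 0.93 ± 0.11 (SE, n = 4 and 4; adjusted p = 9.29e-06), from 41.9 to 48.6 FPKM (EXO) against 21.4 to 26.9 (LPS).

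Of the U5 proteins, Eftud2, a GTPase, had 56.4, 53.9, 68.2 and 61.9 FPKM in EXO replicates 1 to 4 and 23.4, 20.2, 24.4 and 36.6 in LPS replicates 1 to 4 and rose by 1.199 ± 0.16 (SE, n = 4 and 4; adjusted p = 2.33e-05). Snrnp200, the helicase that unwinds U4 from U6, averaged 31.4 ± 3.65 FPKM (EXO) against 17.6 ± 4.26 (LPS) and rose by 0.82 ± 0.15 (SE, n = 4 and 4; adjusted p = 0.000348). Prpf8, the scaffold that cradles the active site, had 35.3, 51.1, 47.8 and 45.2 FPKM in EXO replicates 1 to 4 and 26.9, 20.9, 25.9 and 38.04 in LPS replicates 1 to 4. EXO replicate 1 lay below LPS replicate 4, so the groups overlapped, and the difference was 0.68 ± 0.17 (SE, n = 4 and 4; adjusted p = 0.00299). Prpf6, which bridges U5 and U4/U6, was at 0.38 (adjusted p = 0.009). Prpf38b was the one gene of the list not called, at 16.96 ± 0.839 FPKM (EXO) against 16.1 ± 0.923 (LPS). Its estimate of 0.07 turned to -0.017 under median-of-ratios rescaling and to -0.0051 with voom.

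**Figure D3:**
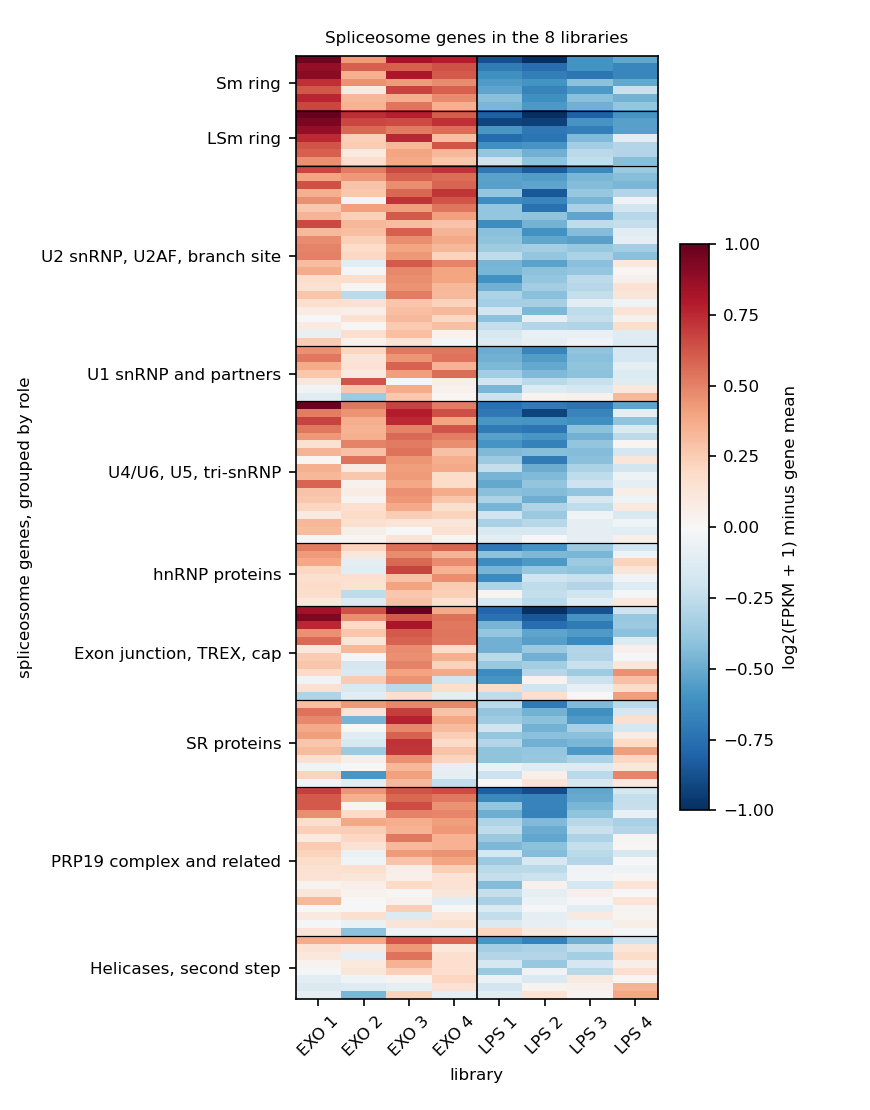
Tested spliceosome genes with a role (rows, grouped by role and sorted by log2 fold change within a role) in the 8 libraries (columns). The colour is log2(FPKM + 1) minus the gene's mean over the libraries, with the scale ending at -1 and 1; EXO columns are mostly red and LPS columns mostly blue, and EXO 2 and LPS 4 are the palest columns of their groups.

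The PRP19 complex and related factors were divided: 11 of 19 rose (against 33.7% of all tested genes), 8 were not called, and the median was 0.41. Those that rose most were Ppie, a cyclophilin of the activated spliceosome, with 63.5, 53.2, 60.7 and 61.6 FPKM in EXO replicates 1 to 4 and 21.5, 20.6, 26.8 and 34.4 in LPS replicates 1 to 4 and a log2 fold change of 1.205 ± 0.15 (SE, n = 4 and 4; adjusted p = 1.14e-05), and Isy1, a factor of the catalytic step, at 85.1 ± 6.604 FPKM (EXO) against 41.4 ± 6.04 (LPS) and 1.03 ± 0.12 (SE, n = 4 and 4; adjusted p = 8.09e-06). Xab2 rose by 0.67 ± 0.11 (SE, n = 4 and 4; adjusted p = 0.0001). Prpf19, the ubiquitin ligase that names the complex, rose by 0.82 ± 0.14 (SE, n = 4 and 4; adjusted p = 0.000141), from 25.7 to 31.8 FPKM (EXO) against 13.6 to 21.2 (LPS). Its core partner Cdc5l did not pass the test and averaged 29.2 ± 2.695 FPKM (EXO) against 26.7 ± 1.55 (LPS), and its log2 fold change was 0.12 ± 0.11 (SE, n = 4 and 4; adjusted p = 0.351). Nor did Snw1 (0.11, adjusted p = 0.409), Syf2 (0.11, 0.437) or Ccdc12 (-0.17, 0.263). The intervals of Cdc5l (-0.11 to 0.36) and Prpf19 (0.53 to 1.11) do not overlap; the difference between these genes was not tested.

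The helicases and second step factors had the lowest median, 0.29, and 4 of 8 rose (against 33.7% of all tested genes). All EXO libraries lay above all LPS libraries for 1 of the 8, against 29.1% of all tested genes. Dhx16, the helicase that fires activation, had 17.3, 17.5, 20.8 and 20.1 FPKM in EXO replicates 1 to 4 and 8.37, 7.82, 9.08 and 11.2 in LPS replicates 1 to 4. All EXO libraries were above all LPS libraries, and it rose by 0.99 ± 0.13 (SE, n = 4 and 4; adjusted p = 1.56e-05). Dhx38, which remodels the complex after the first step, averaged 21.2 ± 2.17 FPKM (EXO) against 20.4 ± 1.51 (LPS), at 0.05 ± 0.11 (SE, n = 4 and 4; adjusted p = 0.712), with a change of sign after median-of-ratios rescaling (-0.042), with voom (-0.031) and without EXO replicate 4 (-0.012). Dhx8, which releases the spliced mRNA, was called at 0.33 (adjusted p = 0.0334), but not without EXO replicate 3 or 4 or without LPS replicate 1, 2 or 3 (0.0609 to 0.109), nor after scaling to TPM (0.0896), after median-of-ratios rescaling (0.0554) or with no filter on low values (0.0541). Dhx15, which takes the spent complex apart, was called at 0.37 (adjusted p = 0.0483). How the call of Dhx15 fared under the other settings is not reported here. Its groups overlapped, with LPS replicate 4, at 61.8 FPKM, above EXO replicates 1, 2 and 4 (58.6, 51.1 and 61.1). Prpf18, a second step factor, was called at 0.39 (adjusted p = 0.0197), but not without EXO replicate 3 (0.0704) or LPS replicate 1, 2 or 3 (0.0513 to 0.0584), nor after scaling to TPM (0.0542). Slu7, its partner in choosing the 3′ splice site, was at -0.11 (adjusted p = 0.471). Ddx5 had 135, 105, 168 and 136 FPKM in EXO replicates 1 to 4 and 132, 159, 147 and 189 in LPS replicates 1 to 4. Its groups overlapped widely, and the difference of -0.21 ± 0.15 (SE, n = 4 and 4; adjusted p = 0.235) did not pass.

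In the exon junction complex, which marks spliced mRNA for export and quality control, every core gene in the map rose. They belong to a list of 12 genes of which 8 rose (median 0.54), where 33.7% of all tested genes did. Magoh and its near-identical copy Magohb had the highest estimates. Magoh had 443, 319, 354 and 339 FPKM in EXO replicates 1 to 4 and 137, 128, 153 and 178 in LPS replicates 1 to 4, and Magohb had 67.5, 58.3, 78.8 and 48.7 FPKM in EXO replicates 1 to 4 and 21.03, 17.5, 19.9 and 32.1 in LPS replicates 1 to 4. Both were higher in every EXO library, by 1.28 ± 0.13 (SE, n = 4 and 4; adjusted p = 3.02e-06) and 1.46 ± 0.18 (SE, n = 4 and 4; adjusted p = 2.26e-05), and reads that fit both copies may be divided between them. The anchoring helicase Eif4a3 averaged 156 ± 15.3 FPKM (EXO) against 80.2 ± 4.96 (LPS) and rose by 0.94 ± 0.11 (SE, n = 4 and 4; adjusted p = 7.47e-06), and Rbm8a, Magoh's binding partner, rose by 0.90 ± 0.14 (SE, n = 4 and 4; adjusted p = 8.2e-05). Of the export factors, Alyref, the adaptor that hands mRNA to the export receptor, had 185, 126, 193 and 157 FPKM in EXO replicates 1 to 4 and 78.8, 63.99, 66.5 and 83.97 in LPS replicates 1 to 4 and rose by 1.15 ± 0.14 (SE, n = 4 and 4; adjusted p = 1.41e-05).

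Of the THO genes, which work with Alyref, Thoc3 rose (0.53, adjusted p = 0.00341), while Thoc1 (0.24, 0.294) and Thoc2 (-0.17, 0.346) were not called. Alyref2, a low copy of Alyref at 2.998 ± 0.602 FPKM (EXO) against 3.12 ± 0.55 (LPS), was at -0.05 (adjusted p = 0.784), and its sign turned without EXO replicate 3 (0.035), LPS replicate 1 (0.0091) or LPS replicate 4 (0.0077). The cap binding genes Ncbp1 (0.55 ± 0.13 (SE, n = 4 and 4; adjusted p = 0.0027)) and Ncbp2 (0.42 ± 0.15 (SE, n = 4 and 4; adjusted p = 0.0285)) both rose.

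The hnRNP proteins coat nascent transcripts and often oppose SR proteins. Of their genes, 6 of 8 rose (against 33.7% of all tested genes), with a median of 0.55. Hnrnpa1, the member with the highest mean FPKM over the 8 libraries, had 687, 558, 701 and 716 FPKM in EXO replicates 1 to 4 and 291, 318, 372 and 419 in LPS replicates 1 to 4. It rose by 0.93 ± 0.13 (SE, n = 4 and 4; adjusted p = 4.37e-05), and in LPS the level was lowest in replicate 1 and highest in replicate 4. Hnrnpc averaged 113 ± 12.01 FPKM (EXO) against 70.7 ± 10.9 (LPS) and rose by 0.68 ± 0.13 (SE, n = 4 and 4; adjusted p = 0.000404), and Hnrnpa3 averaged 25.7 ± 2.12 FPKM (EXO) against 17.9 ± 1.08 (LPS) and rose by 0.49 ± 0.11 (SE, n = 4 and 4; adjusted p = 0.00125). Hnrnpk and Pcbp1, which bind poly(C), were abundant and not called. Hnrnpk averaged 219.8 ± 26.8 FPKM (EXO) against 189.6 ± 20.9 (LPS) (0.21 ± 0.12 (SE, n = 4 and 4; adjusted p = 0.153)) and Pcbp1 181 ± 28.5 FPKM (EXO) against 155 ± 14.03 (LPS) (0.22 ± 0.13 (SE, n = 4 and 4; adjusted p = 0.172)). Pcbp1 was called without EXO replicate 2 (0.34, adjusted p = 0.0218), and without both EXO replicate 2 and LPS replicate 4 Pcbp1 (0.36, adjusted p = 0.0098) and Hnrnpk (0.36, adjusted p = 0.0101) were called. EXO replicate 2 was the lowest EXO library for all 8 genes.

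SR proteins, which recruit the machinery to exons, were the most variable list within groups: the median coefficient of variation was 18.2% in both groups, against 11.7% in EXO and 14.6% in LPS over all tested members. Of 11 genes 6 rose (against 33.7% of all tested genes), and the median was 0.51. All EXO libraries lay above all LPS libraries for 3 of the 11, against 29.1% of all tested genes. Srsf4 had 9.38, 10.3, 10.8 and 10.8 FPKM in EXO replicates 1 to 4 and 6.005, 4.15, 5.21 and 5.98 in LPS replicates 1 to 4, and Srsf7 had 106, 79.5, 118 and 88.5 FPKM in EXO replicates 1 to 4 and 54.96, 51.95, 47.2 and 64.6 in LPS replicates 1 to 4. Neither overlapped, and they rose by 0.85 ± 0.12 (SE, n = 4 and 4; adjusted p = 4.67e-05) and 0.82 ± 0.14 (SE, n = 4 and 4; adjusted p = 0.000177). Srsf9 rose by 0.59 ± 0.13 (SE, n = 4 and 4; adjusted p = 0.00113), from 71.8 to 101 FPKM (EXO) against 51.8 to 63.6 (LPS). Srsf3, the smallest family member, averaged 146 ± 28.7 FPKM (EXO) against 97.5 ± 17.7 (LPS) and rose by 0.57 ± 0.16 (SE, n = 4 and 4; adjusted p = 0.00588), although LPS replicate 4, at 124 FPKM, exceeded EXO replicate 2, at 109.7.

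Srsf1 was called (0.51 ± 0.19 (SE, n = 4 and 4; adjusted p = 0.0316)), but not without EXO replicate 1, 3 or 4 or LPS replicate 1, 2 or 3 (0.0515 to 0.0952), and also not after scaling to TPM (0.0543), after median-of-ratios rescaling (0.0518) or with no filter on low values (0.101). Tra2b was called (0.45 ± 0.14 (SE, n = 4 and 4; adjusted p = 0.0158)), but not without EXO replicate 3 (0.0557) or LPS replicate 2 (0.0516) or with no filter (0.0535). Srsf6 had 52.2, 32.1, 68.9 and 51.1 FPKM in EXO replicates 1 to 4 and 31.3, 31.6, 27.6 and 55.9 in LPS replicates 1 to 4. It was not called (0.48 ± 0.25 (SE, n = 4 and 4; adjusted p = 0.127)), and was called without EXO replicate 2 (0.68, adjusted p = 0.0191), without LPS replicate 4 (0.69, 0.0140) and without both (0.90, 6.86e-07). Srsf5 had 161, 91.6, 183 and 129 FPKM in EXO replicates 1 to 4 and 118, 142, 114 and 194 in LPS replicates 1 to 4. Its groups covered the same range, at -0.02 ± 0.22 (SE, n = 4 and 4; adjusted p = 0.93), and the sign turned without EXO replicate 2 (0.17), EXO replicate 4 (0.0043) or LPS replicate 4 (0.13), while without both EXO replicate 2 and LPS replicate 4 it was called at 0.33 (adjusted p = 0.0361). Tra2a, at 43.7 ± 7.96 FPKM (EXO) against 44.5 ± 4.13 (LPS), was at -0.04 ± 0.13 (SE, n = 4 and 4; adjusted p = 0.831), and the sign turned without EXO replicate 4 (0.041) or LPS replicate 2 (0.0039). LPS replicate 4 was the highest LPS library for 9 of the 11 SR genes, and EXO replicate 3 the highest EXO library for 10.

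**Figure D4:**
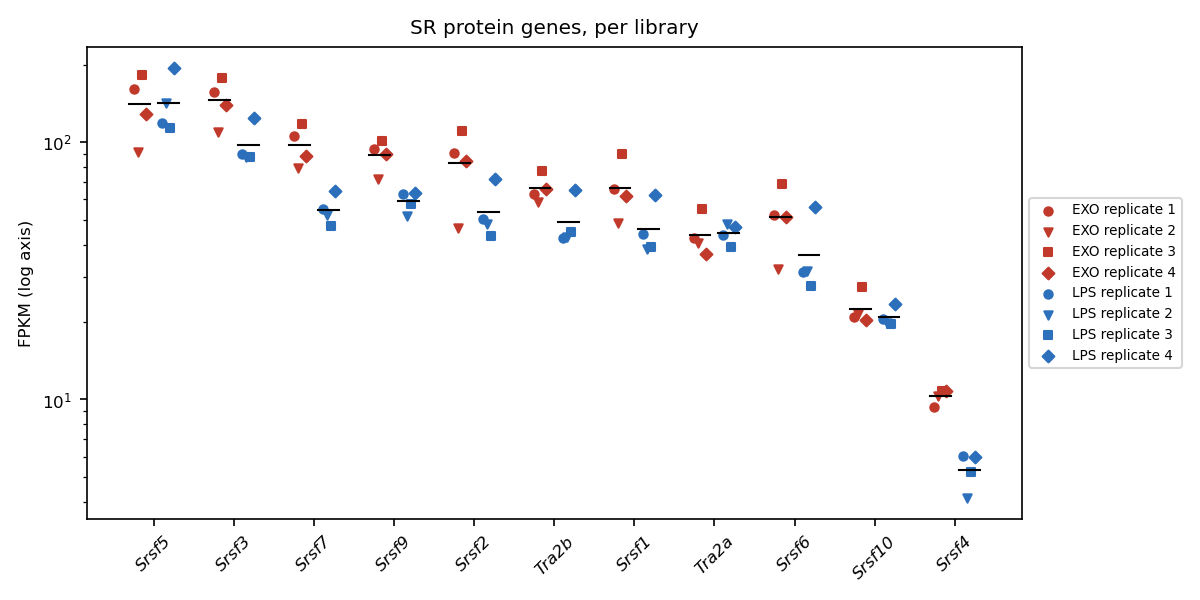
FPKM on a log axis of the 11 SR protein genes, 1 point per library, with the shape giving the replicate number and bars the group means. Srsf4, Srsf7 and Srsf9 show no overlap between EXO and LPS, while for Srsf5 and Tra2a the groups cover the same range.

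Rp9, a retinitis pigmentosa gene placed in no role list, averaged 43.2 ± 5.03 FPKM (EXO) against 30.1 ± 4.904 (LPS) and rose by 0.51 ± 0.13 (SE, n = 4 and 4; adjusted p = 0.00444).

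Paralog pairs were compared by the log2 ratio of their FPKM values in each library, an exact two-sided permutation test over libraries whose smallest p is 0.0286, and adjustment over the 14 pairs computed. None passed after adjustment. No pair could pass unless most of the 14 reached that smallest p, so the lack of a pass says little about any pair. In 6 pairs the ratios did not overlap between groups (exact permutation p = 0.0286, adjusted p = 0.0667). U2af1 over U2af1l4 was 2.78 ± 0.095 in EXO and 2.20 ± 0.24 in LPS (SD, n = 4), a difference of 0.58. Tra2a over Tra2b was -0.60 ± 0.16 against -0.11 ± 0.28, and Srsf5 over Srsf6 was 1.45 ± 0.12 against 1.95 ± 0.16. In both of these SR pairs the ratio was lower in every EXO library than in any LPS library. The remaining such pairs were Hnrnpa1 over Hnrnpa3 (difference 0.44), Prpf38a over Prpf38b (0.38) and Srsf3 over Srsf7 (-0.25). Magoh over Magohb differed by -0.18 (exact permutation p = 0.371).

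Ddx39a, the paralog of Ddx39b that the map does not hold, had 97.7, 69.7, 106 and 93.7 FPKM in EXO replicates 1 to 4 and 30.95, 32.7, 37.9 and 48.1 in LPS replicates 1 to 4, and rose by 1.28 ± 0.16 (SE, n = 4 and 4; adjusted p = 1.27e-05). The same was seen for Rbmxl1, a copy of the hnRNP gene Rbmx, at 0.58 ± 0.13 (SE, n = 4 and 4; adjusted p = 0.00197), beside 0.55 ± 0.14 (SE, n = 4 and 4; adjusted p = 0.00326) for Rbmx.

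Estimates among members were larger for shorter transcripts. Across genes, which are not independent replicates, the log2 fold change of members correlated with the length implied by the FPKM steps with a Spearman's rho of -0.36 (122 genes) and with mean level with 0.37, and length and level were themselves related (-0.64). Over all tested genes the values were -0.13, 0.089 and -0.43. With the tested genes divided into 3 equal classes by length, the members' medians were 0.79 (57 genes), 0.50 (42) and 0.59 (23) from short to long, and those of all tested genes were 0.18, 0.095 and -0.00099. The share of members higher was 84.2%, 69.0% and 69.6%, against 40.4%, 35.4% and 25.5%. The members' share lay above that of all tested genes in each length class, and the part of length in the members' differences was not tested.

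Genes that act on the spliceosome but lie outside the map were read from lists by function. In the assembly machinery, the SMN complex loads Sm rings onto RNA after the methylosome has modified them. Of its 16 genes 13 were higher, where 33.7% of all tested genes were. Lower were 0, where 24.7% of all tested genes were, and the median was 0.83. Smn1, the central subunit, had 60.4, 56.2, 66.2 and 63.6 FPKM in EXO replicates 1 to 4 and 20.9, 19.4, 24.6 and 33.4 in LPS replicates 1 to 4. All EXO libraries were above all LPS libraries, and the difference was 1.32 ± 0.15 (SE, n = 4 and 4; adjusted p = 5.72e-06). Prmt5, the arginine methyltransferase that modifies Sm tails, had 46.8, 42.7, 53.5 and 49.8 FPKM in EXO replicates 1 to 4 and 14.1, 14.3, 17.2 and 28.7 in LPS replicates 1 to 4 and rose by 1.38 ± 0.19 (SE, n = 4 and 4; adjusted p = 4.08e-05). Gemin2 (1.24 ± 0.14 (SE, n = 4 and 4; adjusted p = 6.4e-06)), Gemin5 (1.16 ± 0.15 (SE, n = 4 and 4; adjusted p = 1.42e-05)) and Gemin8 (1.03 ± 0.11 (SE, n = 4 and 4; adjusted p = 2.38e-06)) rose likewise. Those not called were Gemin7 (0.22), Tgs1 (-0.0016), which adds methyl groups to the cap of the RNAs, and Phax (0.10), the export adaptor of these RNAs.

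Of 11 tested genes of the minor spliceosome, which removes a rare class of introns, 6 rose and 1 fell, where 33.7% of all tested genes rose and 24.7% fell, and the median was 0.32. Snrnp25 rose by 1.11 ± 0.16 (SE, n = 4 and 4; adjusted p = 3.9e-05), and Armc7 fell, with 1.39, 2.37, 2.05 and 1.67 FPKM in EXO replicates 1 to 4 and 3.11, 4.23, 3.52 and 3.56 in LPS replicates 1 to 4 and a log2 fold change of -0.69 ± 0.13 (SE, n = 4 and 4; adjusted p = 0.000372). Among 8 kinases that phosphorylate SR and related splicing proteins 2 rose and 1 fell, no larger shares than those of all tested genes, and the median was 0.01. Srpk1 (0.59 ± 0.15 (SE, n = 4 and 4; adjusted p = 0.0042)) and Clk3 (0.42 ± 0.12 (SE, n = 4 and 4; adjusted p = 0.0086)) rose and Clk1 (-0.50 ± 0.15 (SE, n = 4 and 4; adjusted p = 0.0115)) fell. Of 36 splicing regulators, a list that shares 1 gene with the map, 19 rose and 4 fell, with a median of 0.48. Hnrnpab rose by 1.07 ± 0.15 (SE, n = 4 and 4; adjusted p = 3.12e-05). The 4 that fell were Mbnl2 (-1.15 ± 0.14 (SE, n = 4 and 4; adjusted p = 8.86e-06)), Mbnl1 (-0.68 ± 0.13 (SE, n = 4 and 4; adjusted p = 0.00058)), which with Mbnl2 forms the muscleblind pair of splicing regulators, Rbm5 (-0.51 ± 0.13 (SE, n = 4 and 4; adjusted p = 0.00387)) and Tia1 (-0.28 ± 0.10 (SE, n = 4 and 4; adjusted p = 0.0338)). These 4 are a smaller share of their list than the 24.7% of all tested genes that fell.

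**Figure D5:**
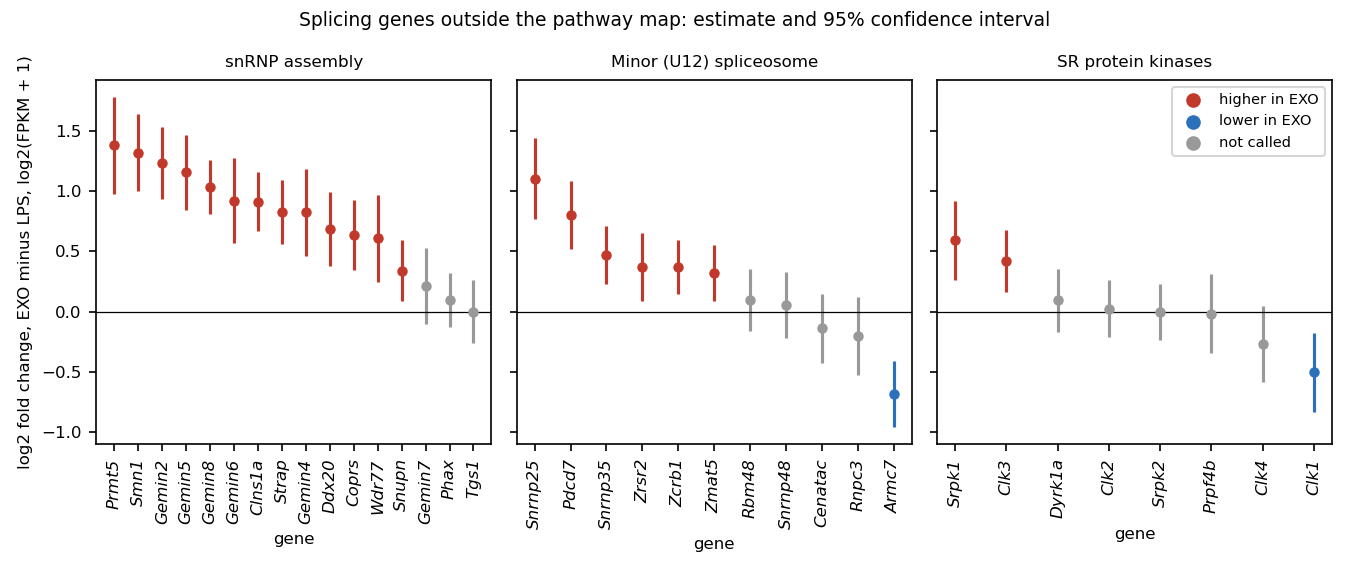
Log2 fold change (EXO minus LPS, computed from log2(FPKM + 1)) with 95% confidence intervals of tested genes of 3 lists outside the map. Of the snRNP assembly genes 13 of 16 are higher in EXO, while the minor spliceosome and the SR protein kinases each hold 1 gene that is lower. Over all tested genes 33.7% were higher and 24.7% lower.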

How the data were processed

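RNA sequencing was available for 4 EXO and 4 LPS libraries. Per the labels' protocols, RNA was extracted with TRIzol and a VAHTS Universal V6 kit made the libraries, and per the submitters' processing notes HISAT2 and GRCm39 (mm39) were used; the sources used here give no counting tool, strand setting or annotation. The authors deposited FPKM values with pathway annotation; the header names no unit, which was inferred from the values. For 17645 of the 17645 detected genes the steps between values gave whole fragments (within 0.001), and so the depth; the totals are slightly low where all of a gene's counts share a divisor.

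The 9812 genes with 1 FPKM or more in 4 or more libraries were compared as log2(FPKM + 1), EXO minus LPS, in limma 3.58.1 (R 4.3.3; trend, robust), two-sided, with Benjamini-Hochberg adjustment over all tested genes and a threshold of 0.05. Fold changes on this scale understate those of low genes. Adjusted p-values in the text are limma's unless stated. Pair ratios used exact permutation over the 70 regroupings. Promoters were RefSeq's (GRCm38.p6), matched by gene ID. The step that makes calls was tested on simulated data.

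The 10 role lists, the lists outside the map and the members were chosen with earlier results of these data known. Named genes were the 10 highest called members without overlap, up to 3 per role by smallest p, the 5 most abundant, the 5 nearest 0 and paralog pairs; others were named after their values were seen, and a few are not reported here. Mitochondrial transcripts were not analysed here. Alternatives were other scalings (TPM, median-of-ratios), a pseudocount of 0.1, other filters, voom on recovered fragments with TMM factors, a block for the replicate number, and fits with fewer libraries.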

Additional observations from a re-analysis of the deposited data

Results flagged for a closer look

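Among the named genes, 110 sets of 4 libraries were checked for a library far from the others, and 10 were picked out; chance alone picks out about 1 in 20. In LPS, replicate 4 was the high library in all 5 cases: Snu13 at 154 FPKM, Hnrnpc at 86.9, Tra2b at 65.0, Srsf3 at 124 and Srsf6 at 55.9. In EXO, replicate 1 was high for Snrpd2 (361 FPKM), Lsm3 (391) and Snrpe (625), replicate 3 for Prpf18 (18.9) and replicate 2 for Prpf40b (4.29). What sets these libraries apart was not tested.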

How the results depend on the processing

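The count of spliceosome genes higher in EXO was 93 as reported and 82 after scaling to TPM, 83 after median-of-ratios rescaling, 93 with a pseudocount of 0.1, 82 of 125 with no filter on low values, 92 of 119 at a mean FPKM of at least 5, 88 with voom, 81 to 101 on leaving out each library in turn, and 104 without both EXO replicate 2 and LPS replicate 4. None of these settings called a member lower. The members' median ranged from 0.51 (median-of-ratios) to 0.76 (without both libraries). With the replicate block 96 members were higher, and 3253 and 2339 of all tested genes were higher and lower, against 3310 and 2422. The labels do not say whether equal numbers mark pairs or batches. Deviations of same-numbered libraries correlated at 0.05, 0.17, -0.29 and -0.11, which cannot settle what the numbers mean. Estimates near 0 changed sign: Dhx38 (-0.042 by median-of-ratios, -0.031 by voom), Prpf38b (-0.017 and -0.0051), and, without both libraries, Srsf5 (0.33), Tra2a (0.021) and Alyref2 (0.051). Leaving out single libraries they ranged from -0.16 to 0.17 for Srsf5, -0.15 to 0.041 for Tra2a, -0.12 to 0.035 for Alyref2 and -0.012 to 0.094 for Dhx38; the cause was not tested. The pair ratios Snrpa over Snrpb2 (-0.13 to 0.07), Rbmx over Rbmxl1 (-0.13 to 0.06), Srsf1 over Srsf9 (-0.16 to 0.04) and Pcbp1 over Hnrnpk (-0.04 to 0.07) had no stable sign. With a pseudocount of 0.1, 0 of 14 pairs passed adjustment, under the same limit set by the smallest p. A library's scaling cancels in a ratio apart from the pseudocount, so rescaling is no check of the pairs. Pairs were not tested with a library left out. Low genes such as Alyref2, Prpf40b and Armc7 rest on the fewest fragments.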
